A study of Mus musculus with 8 samples.

Results

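Across 16 transplanted mammary tumours, 7 genes that mark luminal progenitors of the mouse mammary gland were followed: Kit, Itgb3, Tspan8, Itga2, Aldh1a3, Sox9 and Abcg2. They were chosen by name, as the non-control array probes whose RefSeq id belongs to one of these 7 genes. This gave 8 probes among the 55681 distinct probes of the array. Only 28026 probes could be tied to a gene in this way, so a member probe with another kind of id would be missed. Each gene had 1 such probe, except Itgb3, which had 2. Of the 8 probes, 7 (6 genes) passed the filter on dim signal and were tested among 28495 probes, and the Itga2 probe did not pass.

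The tumours grew orthotopically in FVB mice from pieces of MMTV-PyMT mammary tumours, in which the mouse mammary tumour virus promoter drives the polyoma middle T oncogene. Every tumour, controls included, carries this transgene and was a transplant. Some hosts received RANK-Fc, a soluble decoy that captures RANK ligand, by intraperitoneal injection (10 mg/kg, 3 times per week). RNA of 16 tumours was hybridised to 8 two-colour Agilent arrays on 1 slide, 1 tumour per channel. In passage 2 there were 3 tumours treated in passages 1 and 2 alike (prior and current), 3 with RANK-Fc in passage 1 alone (prior, the labels' neoadjuvant arm), 3 with RANK-Fc in passage 2 alone (current, the labels' adjuvant arm) and 2 untreated controls. In passage 1 there were 3 RANK-Fc tumours and 2 untreated controls. The timing of the prior treatment is read here from the labels' group codes, and no label ties a passage 2 tumour to its passage 1 source. Ages are not given in the sources used here. The labels give each tumour its own code; a donor piece or litter that tumours may share is not given, so p-values measure the spread between these tumours. The labelled tissue carried its defining markers: the keratin genes Krt8 and Krt18 and the adhesion gene Epcam were well above background in 16 of 16 tumours.

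Luminal progenitors are hormone receptor-negative luminal cells that can form the alveolar, milk-producing lineage. They sit next to hormone-sensing luminal cells, which release RANK ligand in response to progesterone, and RANK on progenitors and basal cells receives that signal. Kit, Itgb3 (CD61), Itga2 (CD49b) and Aldh1a3 are used to sort or stain these cells in the mouse, while Sox9 and Abcg2 are also known from stem-like mammary cells. In bulk tumour RNA, fewer cells of a type and less RNA per cell cannot be told apart.

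RefSeq start-site windows (250 bases before and 50 after the start, build GRCm38.p6) were at hand for 4 of the 7 genes: Kit, Tspan8, Itga2 and Abcg2. The 250 bases before the start are shown for Tspan8 (chr10:115817034-115817283, plus strand) and Kit (chr5:75574737-75574986, plus strand), 2 members that fell together between passages, and for the most 5′ of the Abcg2 windows (chr6:58584283-58584532, plus strand), a member that did not. Capitals mark matches to the motifs searched.
Tspan8: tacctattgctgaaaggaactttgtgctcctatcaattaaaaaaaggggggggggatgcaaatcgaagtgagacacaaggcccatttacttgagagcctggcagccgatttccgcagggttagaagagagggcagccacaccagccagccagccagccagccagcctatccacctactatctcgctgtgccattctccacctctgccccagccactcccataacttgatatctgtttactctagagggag
Kit: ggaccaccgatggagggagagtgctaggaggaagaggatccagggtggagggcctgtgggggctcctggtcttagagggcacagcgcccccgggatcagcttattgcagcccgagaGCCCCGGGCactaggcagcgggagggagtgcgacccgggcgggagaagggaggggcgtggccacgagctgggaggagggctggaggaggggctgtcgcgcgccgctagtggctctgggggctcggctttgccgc
Abcg2: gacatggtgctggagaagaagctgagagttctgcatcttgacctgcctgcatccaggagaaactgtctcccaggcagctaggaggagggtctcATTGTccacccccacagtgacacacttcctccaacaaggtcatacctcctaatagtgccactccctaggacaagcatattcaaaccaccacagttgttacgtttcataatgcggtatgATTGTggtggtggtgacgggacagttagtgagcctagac
On both strands of the whole 300-base windows, 4 motifs were searched: STAT5 (TTCNNNGAA), AP-2 (GCCNNNGGC), Sox (ACAAT) and NF-kB (by its name). The Tspan8 window held none of the 4. The printed Kit window held 1 AP-2 match, 134 bases before the start. A second, overlapping Kit window held the same match at 138 bases. The Itga2 window held 1 AP-2 match at 135 bases, and 16.6% of all 32851 RefSeq windows hold one. The printed Abcg2 window held 2 Sox matches, 157 and 39 bases before the start, a motif found in 31% of all windows. The other 2 Abcg2 windows each held 1 NF-kB match, which 8.46% of all windows do. No member window held the STAT5 letters, found in 8.30% of all windows. No matches of different motifs overlapped.

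Levels are log2 intensities after background correction and normalisation, and they compare tumours within a probe, not one probe with another. Unless stated, levels, group means, overlaps and their shares of probes carry no dye correction, while the main fit holds a dye term. Its Cy5 minus Cy3 offset was -0.41 for Tspan8, -0.25 for Sox9, -0.24 for Kit and Aldh1a3 and -0.20 for Abcg2. For the 2 Itgb3 probes it was -0.02 and 0.04. Between passage 1 and the current and control tumours of passage 2, Tspan8, Itgb3, Kit and Sox9 all fell. Their log2 differences were -3.96, -2.28, -1.03 and -1.01, with prior-treated tumours left out. Aldh1a3 and Abcg2 did not pass the test. No member passed the test for any effect of RANK-Fc. The widest spread over the 16 tumours was that of Tspan8, 5.59 log2 units between its lowest and highest level, against 2.97 for the brighter Itgb3 probe, 1.60 for Kit and 1.46 for Sox9.

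**Figure D1:**
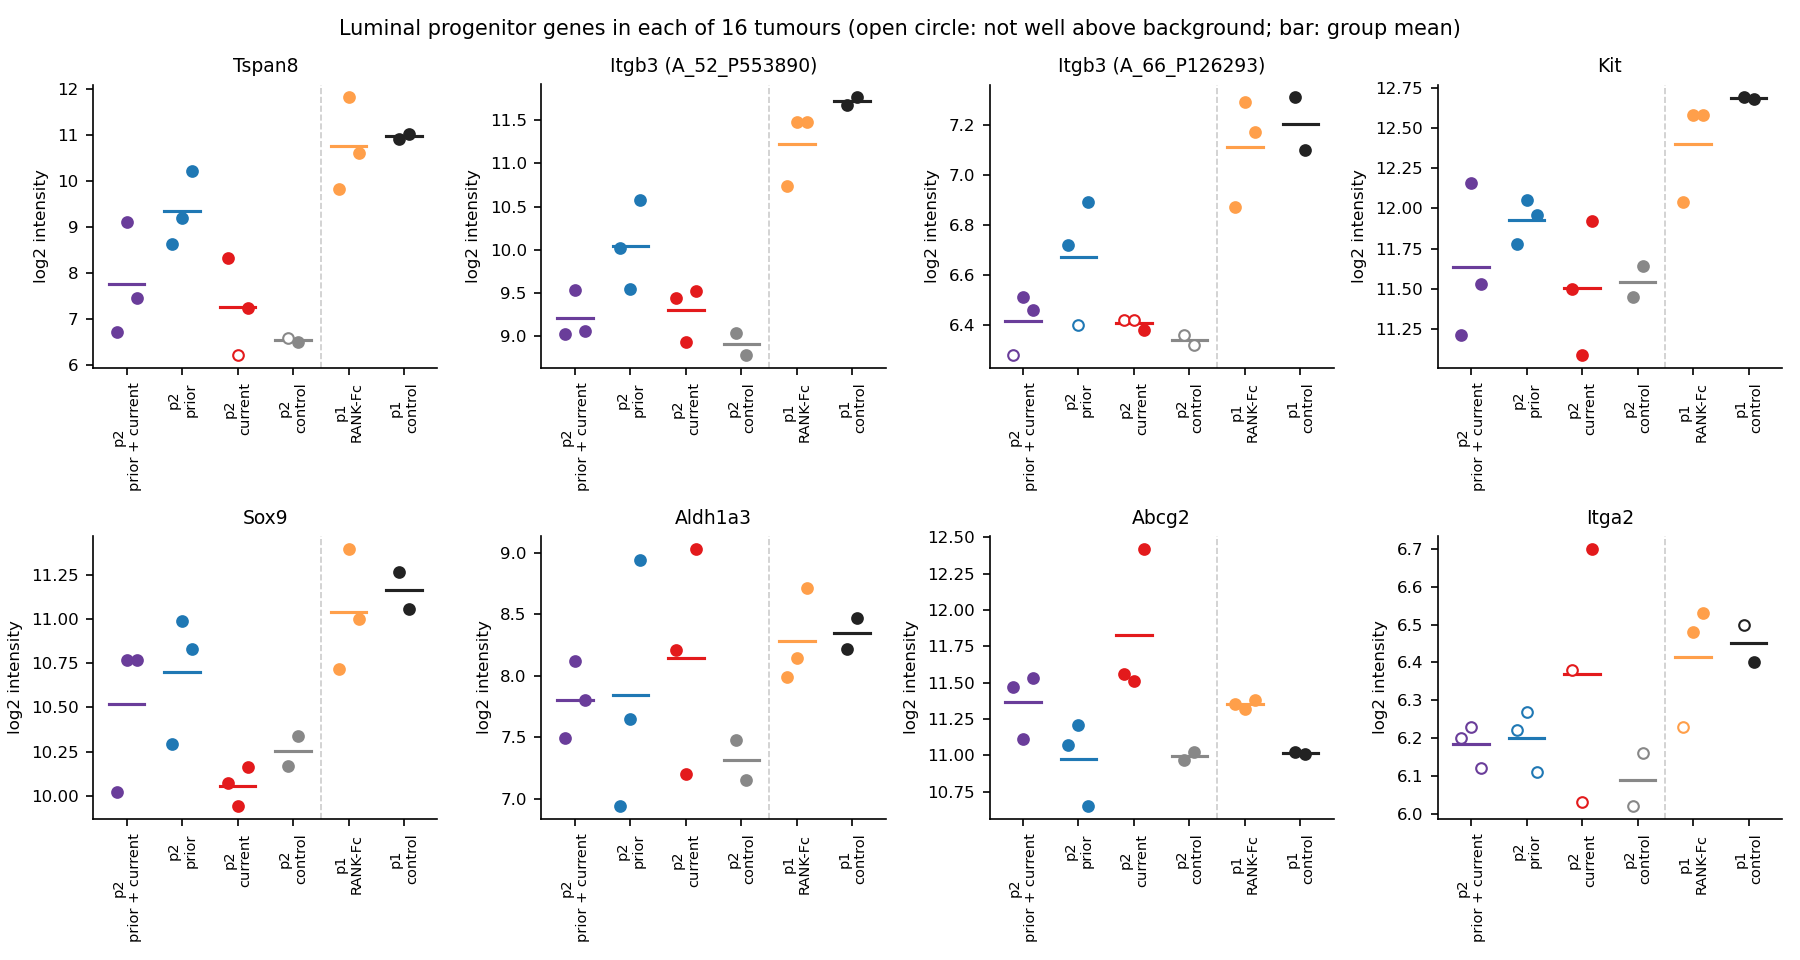
Log2 intensity of each of the 8 member probes (1 panel each, own vertical axis) in the 6 groups, with 1 point per tumour, the bar at the group mean and open circles where the probe was not well above background. The brighter Itgb3 probe is lower in all 11 passage 2 tumours than in the 5 passage 1 tumours right of the dashed line, and the highest Tspan8 level of passage 2, 10.23, belongs to a prior tumour.

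Tspan8 encodes a tetraspanin, a membrane protein that organises other surface proteins. In passage 2 its log2 intensity was 6.73, 9.12 and 7.46 in prior and current tumours, 8.63, 9.21 and 10.23 in prior tumours, 8.33, 6.23 and 7.24 in current tumours, and 6.60 and 6.50 in controls. In passage 1 it was 9.83, 11.82 and 10.62 in RANK-Fc tumours and 10.92 and 11.02 in controls. All 5 current and control tumours of passage 2 lay below all 5 tumours of passage 1, as in 6.69% of all probes, while 1 prior tumour lay above the lowest passage 1 tumour. The probe was well above background in 14 of 16 tumours; 1 current and 1 control tumour of passage 2 were not. Group means in passage 2 were 7.77 ± 1.22 in prior and current (SD, n = 3), 9.36 ± 0.81 in prior (n = 3), 7.27 ± 1.05 in current (n = 3) and 6.55 ± 0.07 in control tumours (n = 2), and in passage 1 they were 10.76 ± 1.00 in RANK-Fc (n = 3) and 10.97 ± 0.07 in control tumours (n = 2). Both passage 1 groups thus had the highest means, the prior group came next and the passage 2 controls were lowest, and every pair of neighbours in this order had overlapping tumours.

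Itgb3 encodes integrin beta 3 (CD61), which pairs with the alpha v chain on epithelial and endothelial cells and with alpha IIb on platelets. The brighter of its 2 probes (A_52_P553890) read 9.03, 9.54 and 9.06 in prior and current tumours, 10.02, 9.55 and 10.58 in prior tumours, 9.44, 8.94 and 9.53 in current tumours, and 9.04 and 8.79 in passage 2 controls. In passage 1 it read 10.74, 11.47 and 11.47 in RANK-Fc tumours and 11.67 and 11.76 in controls. All 11 tumours of passage 2 lay below all 5 of passage 1, as in 1.51% of all probes. The second probe (A_66_P126293) was dim, between 6.28 and 6.89 in passage 2 and between 6.87 and 7.31 in passage 1. It was well above background in 5 of 11 tumours of passage 2 and in 5 of 5 of passage 1. Of 7 platelet markers, Pf4 and Treml1 were well above background in 16 of 16 tumours, Itga2b, the platelet partner of Itgb3, in 5, Gp9 in 3, Gp6 and Ppbp in 2 each and Gp1ba in 0. Their part in the Itgb3 levels was not tested.

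Kit encodes the receptor tyrosine kinase for stem cell factor. It read 11.21, 12.16 and 11.53 in prior and current tumours, 11.78, 12.05 and 11.96 in prior tumours, 11.50, 11.09 and 11.92 in current tumours, and 11.45 and 11.64 in passage 2 controls, against 12.04, 12.58 and 12.58 in passage 1 RANK-Fc tumours and 12.69 and 12.68 in passage 1 controls. Of the 11 tumours in passage 2, only 2 reached the lowest passage 1 tumour: 1 with prior and current treatment and 1 with prior treatment alone. On dye-corrected levels that passage 1 tumour, in Cy5, read 12.28. The prior tumour, in Cy3, read 12.05 and did not reach it, while the prior and current tumour, at 12.40, did. Mast cells also express Kit. Of the 7 mast cell markers on the array, the protease genes Tpsb2, Mcpt4, Cpa3 and Cma1 were well above background in 16, 15, 7 and 1 of 16 tumours, Mrgprb1 in 2, and the IgE receptor genes Fcer1a and Ms4a2 in 0. Their mean level ran between 6.42 and 6.83 in passage 2 and between 6.43 and 6.71 in passage 1, and their part in the Kit levels was not tested.

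Sox9 encodes an HMG-box transcription factor of progenitors in several epithelia and of cartilage. It read 10.02, 10.77 and 10.77 in prior and current tumours, 10.29, 10.99 and 10.83 in prior tumours, 10.07, 9.94 and 10.16 in current tumours, and 10.17 and 10.34 in passage 2 controls. Passage 1 gave 10.72, 11.4 and 11 in RANK-Fc tumours and 11.27 and 11.06 in controls. The 5 current and control tumours of passage 2 lay below all of passage 1, the separation that 6.69% of all probes show. Without dye correction, 4 of the 6 prior-treated tumours lay above the lowest passage 1 tumour. On dye-corrected levels that lowest tumour, in Cy5, read 10.97, above the prior and current replicate 3 tumour at 10.77. This probe is printed 10 times on each array, and the median SD between its spots within a tumour was 0.12 log2 units; for the 2 spots of the Kit probe it was 0.07.

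Aldh1a3, an enzyme that oxidises retinaldehyde to retinoic acid, read 7.49, 8.12 and 7.80 in prior and current tumours, 6.94, 7.65 and 8.94 in prior tumours, 8.21, 7.20 and 9.03 in current tumours, and 7.48 and 7.15 in passage 2 controls. Passage 1 gave 7.99, 8.14 and 8.71 in RANK-Fc tumours and 8.22 and 8.47 in controls. The range of every passage 2 group except the controls overlapped that of passage 1. The spread within groups reached 1.01 (SD, n = 3, prior tumours), so the order of the groups is not resolved. Itga2, the collagen-binding integrin alpha 2 chain, was well above background in 4 of 16 tumours: 1 with current treatment in passage 2, and 2 with RANK-Fc and 1 control in passage 1. Its levels elsewhere were not well above background, so no fold is given.

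Abcg2, an efflux transporter that carries drugs and, in the lactating gland, milk constituents, had a different order. It read 11.47, 11.11 and 11.53 in prior and current tumours, 11.07, 11.21 and 10.65 in prior tumours, 11.56, 11.51 and 12.42 in current tumours, and 10.97 and 11.02 in passage 2 controls. In passage 1 it read 11.35, 11.32 and 11.38 in RANK-Fc tumours and 11.02 and 11.01 in controls. Treated and control tumours did not overlap in passage 2 without prior treatment (6.25% of all probes stood higher in this way) or in passage 1 (6.46%), and 8 of the 9 tumours under RANK-Fc at collection lay above all 7 that were not. Separation of at least 8 of 9 was seen in 0.0527% of all probes, and this pattern was picked out after the Abcg2 values were seen. The one exception was a prior and current tumour in Cy5 (11.11), which lay below the highest prior tumour, in Cy3 (11.21). On dye-corrected levels this exception read 11.30, above the highest of the 7 tumours not under RANK-Fc, 11.27. The share of all probes was not counted on dye-corrected levels.

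The first comparison asked how the members moved with passage, with the difference taken over current and control tumours of passage 2 against RANK-Fc and control tumours of passage 1, 5 tumours each. The limma moderated fit gave differences of -3.96 ± 0.56 for Tspan8 (SE, adjusted p = 0.00129) and -2.28 ± 0.22 for the brighter Itgb3 probe (4.87-fold lower, adjusted p = 0.000182). The size for Tspan8 rests partly on 1 current and 1 control tumour that were not well above background, and it ran between -5.63 and -3.91 over the other processing settings. Kit fell by 1.03 ± 0.17 (2.05-fold, adjusted p = 0.00273) and Sox9 by 1.01 ± 0.16 (2.01-fold, adjusted p = 0.00271). Among all 28495 probes 5.91% fell, 3.26% rose and 9.17% passed in either direction. The probes of Itgb3 (the brighter one), Kit, Sox9, Aldh1a3 and Abcg2 were well above background in all 16 tumours, and 3 of these 5 genes fell, against 5.77% of the 23304 probes detected this widely. Tspan8 passed the filter through both passage 1 groups and both prior-treated groups of passage 2. The second Itgb3 probe passed it through the passage 1 groups alone, so its difference of -0.76 ± 0.11 (-2.40 to -0.66 over the other settings) is given only as a description. It was not well above background in either passage 2 control, and passage 1 RANK-Fc tumours were at least 1.71-fold and passage 1 controls at least 1.83-fold higher than those. Aldh1a3 differed by -0.53 ± 0.37 (95% interval -1.33 to 0.26, adjusted p = 0.413) and Abcg2 by 0.25 ± 0.17 (-0.12 to 0.62, adjusted p = 0.418), so a fall of Aldh1a3 as large as that of Kit lay inside its interval and one of Abcg2 did not. The median over the 6 genes was -1.02, against -0.005 over 14131 genes. On 3 arrays a passage 2 tumour was paired with a passage 1 tumour. Without dye correction, Tspan8 differed by -1.50 and the brighter Itgb3 probe by -1.29 between current replicate 1 and passage 1 RANK-Fc replicate 1. The other pairs held prior-treated tumours, which the main difference leaves out. Prior replicate 1 against passage 1 RANK-Fc replicate 2 gave -3.19 and -1.45. Prior and current replicate 1 against passage 1 control replicate 2 gave -4.28 and -2.73. In these prior-treated pairs the passage 2 tumour was in Cy5, whose Tspan8 offset of -0.41 goes in the direction of the fall. In the current pair it was in Cy3. Leaving out each tumour in turn kept the falls of Tspan8, the brighter Itgb3 probe, Kit and Sox9 past the threshold, with differences of -4.36 to -3.65 for Tspan8 and -2.49 to -2.20 for Itgb3.

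**Figure D2:**
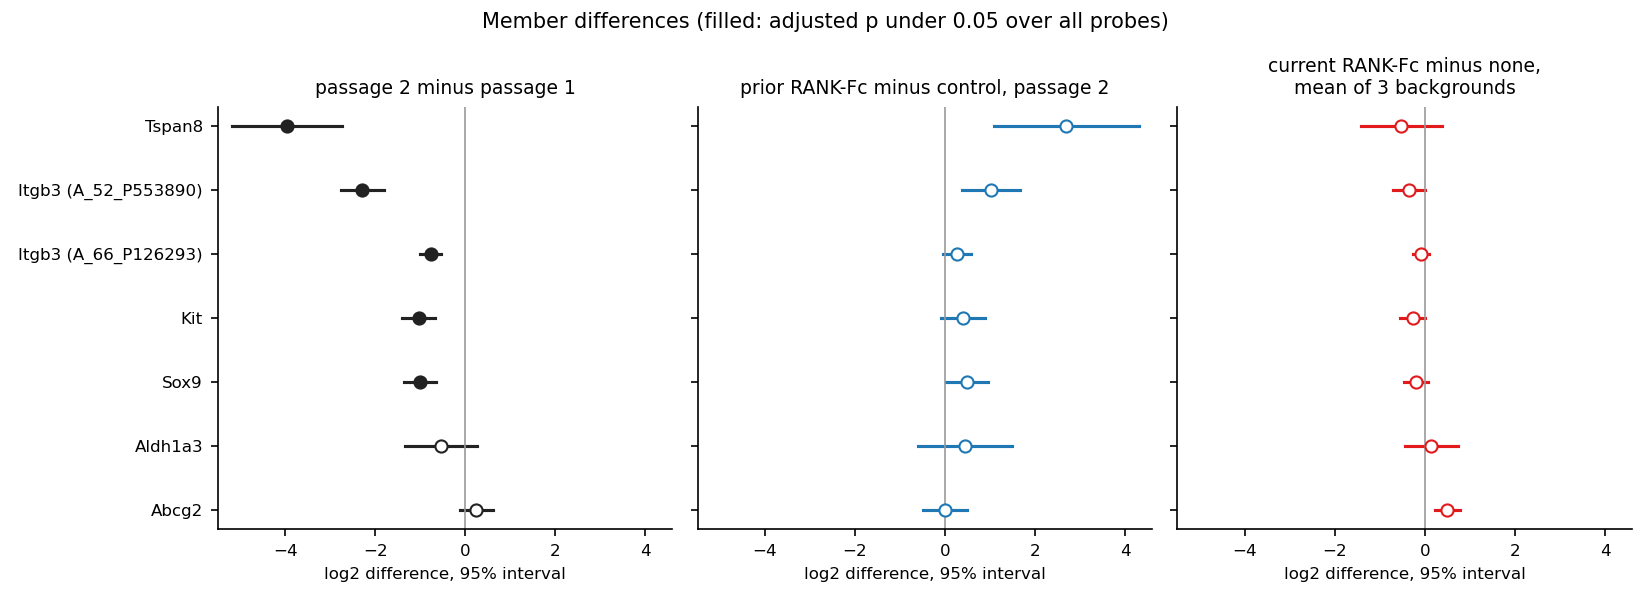
Log2 difference (horizontal axis) of the 7 tested member probes with its 95% interval, for passage 2 minus passage 1 (left), prior RANK-Fc minus control in passage 2 (middle) and current RANK-Fc minus none over 3 backgrounds (right). In the left panel passage 2 means its current and control tumours. Filled points passed the test: 5 probes in the passage panel, led by Tspan8 at -3.96, and none in the other panels; the second Itgb3 probe entered the test through passage 1 alone.

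Markers of other cells were read beside these falls. Fibroblast markers had a median difference of -0.82 between passages, with 8 of 10 lower and none past the test; the smallest p-values were those of Postn (-1.31, adjusted p = 0.0911) and Pdgfra (-0.85, adjusted p = 0.104). All 10 were well above background in every tumour, and their mean level ran between 10.09 and 12.48 in passage 2 and between 11.13 and 11.73 in passage 1. Among the passage 2 tumours compared, this mean was 10.66, 10.44 and 12.48 in current tumours and 10.64 and 10.09 in controls. The part of fibroblasts in the members' differences was not tested. The general luminal markers, in contrast to the members, averaged 11.56 to 11.85 in passage 2 and 11.40 to 11.72 in passage 1, with a median difference of 0.09. Among the remaining lists, none of the tested genes passed for mast cells (3 tested, median -0.07), endothelium (10, 0.08), macrophages (9, 0.11), adipocytes (9, -0.88), T and NK cells (8, 0.27), skeletal muscle (5, 0.36) or platelets (2, 0.15).

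The other genes linked to luminal progenitors did not share one direction. Of 12 measured, Gabrp, a GABA receptor subunit, fell by 1.78 ± 0.34 (adjusted p = 0.00646), Elf5, the transcription factor of the alveolar lineage, rose by 0.57 ± 0.14 (adjusted p = 0.0251), and 10 did not pass; the median was 0.10. Of 8 ligands and partners of the members, Kitl, which encodes the Kit ligand stem cell factor, fell by 0.94 ± 0.16 (adjusted p = 0.00312). On the retinoic acid side of Aldh1a3, the receptor gene Rarb fell by 0.57 ± 0.15 (adjusted p = 0.0314) and the carrier gene Crabp2 rose by 0.64 ± 0.18 (adjusted p = 0.0395). The brightest Rarb probe was well above background in 11 tumours, against 16 for Crabp2. The size of the Rarb fall may thus rest partly on dim signal. The integrin partners did not pass: Itgav of Itgb3 stood at -0.40 ± 0.14 (adjusted p = 0.0917) and Itgb1 of Itga2 at -0.08 ± 0.11 (adjusted p = 0.717).

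General luminal and basal markers held differences in both directions, while most hormone-sensing markers were lower. Of 9 hormone-sensing markers, 7 were lower, with a list median of -0.31. The transcription factor genes Foxa1 (-1.66 ± 0.23, adjusted p = 0.00111) and Cited1 (-1.33 ± 0.22, adjusted p = 0.00274) fell. The brightest Foxa1 probe was well above background in 10 of 16 tumours, so the size of the Foxa1 fall may rest partly on dim signal. Of 10 general luminal markers, Elf3 (0.50 ± 0.11, adjusted p = 0.0146) and the tight junction gene Cldn4 (0.93 ± 0.24, adjusted p = 0.0329) rose. Of 10 basal markers, the oxytocin receptor gene Oxtr fell (-1.84 ± 0.23, adjusted p = 0.00064), the keratin gene Krt17 rose (1.26 ± 0.31, adjusted p = 0.0244), and the median was -0.05. Of 6 tested cartilage markers, a list set beside Sox9 because Sox9 drives cartilage matrix genes, Col2a1 (-2.06 ± 0.41, adjusted p = 0.00876), Chad (-1.24 ± 0.23, adjusted p = 0.00556) and Comp (-1.07 ± 0.21, adjusted p = 0.00765) fell, while Matn1 and Hapln1 were well above background in 0 of 16 tumours. The brightest probes of Col2a1 and Comp were so in 15 and 13 of 16. The median of the 6 tested cartilage markers was -1.01 (4 lower), close to the members' median of -1.02.

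**Figure D3:**
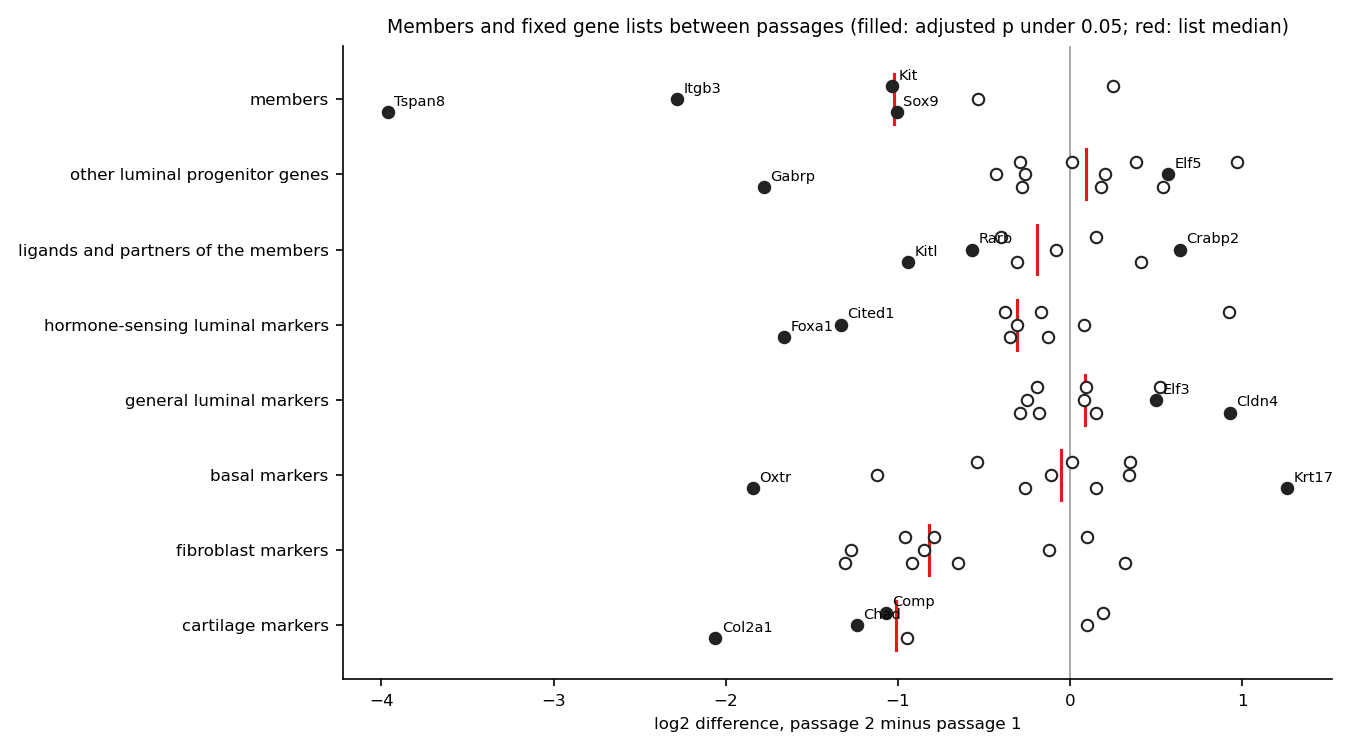
Log2 difference, passage 2 minus passage 1, of every tested gene (points) in the members' list and 7 other lists (rows), with the list median as a red line and filled, named points for genes that passed the test. The members' median lies at -1.02, that of the cartilage markers at -1.01 and that of the other luminal progenitor genes at 0.10. Passage 2 here means its current and control tumours.

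The test of all 6 group means being equal was passed by the brighter Itgb3 probe (adjusted p = 0.0027), Tspan8 (0.0212), Kit (0.0352) and Sox9 (0.0403), and 3.33% of all probes passed it. Abcg2 had an adjusted p of 0.173 and Aldh1a3 of 0.73. For Kit and Sox9 this call was close to the threshold: it was lost in 12 and 13 of the 16 fits that left out 1 tumour, with adjusted p up to 0.109 for Kit and 0.0912 for Sox9. It was kept in all 16 for the brighter Itgb3 probe and in 13 for Tspan8.

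The second comparison asked whether RANK-Fc given in the earlier passage left a difference in untreated passage 2 tumours. Tspan8 was 2.70 ± 0.74 higher in prior tumours than in controls (95% interval 1.10 to 4.30), the brighter Itgb3 probe 1.02 ± 0.30 (0.38 to 1.66), Sox9 0.48 ± 0.22 and Kit 0.40 ± 0.22. One of the 2 controls was not well above background for Tspan8, whose difference ran between 2.28 and 4.27 over the other settings. None of these differences passed the threshold over all probes, with adjusted p of 0.341, 0.381, 0.743 and 0.853, and 1 of 28495 probes (0.00351%) did. The 3 prior tumours lay above both controls for Tspan8, both Itgb3 probes and Kit, as did 10.9% of all probes. For Sox9, 1 prior tumour lay between the controls without dye correction. On dye-corrected levels the 3 prior tumours read 10.55, 10.99 and 11.09 for Sox9, against 10.43 and 10.34 in the controls. All 6 tested genes had a positive difference, with a median of 0.46, against 7019 of 14131 genes and a median of -0.001. Aldh1a3 stood at 0.44 ± 0.48 and Abcg2 at 0.003 ± 0.23. Of the other luminal progenitor genes, Gabrp had the smallest p-value (1.60 ± 0.45, adjusted p = 0.359). In this comparison the median was 0.45 for fibroblast markers (7 of 10 positive), 0.80 for skeletal muscle (5 of 5) and 0.48 for cartilage (5 of 6, up to 1.89). It was -0.55 for adipocyte markers (9 of 9 negative) and -0.49 for T and NK cell markers (8 of 8 negative), and no gene of these lists passed the test. Mean fibroblast levels were 10.35 to 11.62 in prior tumours against 10.09 to 10.64 in controls. Mean muscle levels were 9.25, 6.48 and 6.47 in prior tumours against 6.50 and 6.57 in controls, so only prior replicate 1 lay above the controls. The part of these cell types in the members' differences was not tested.

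With RANK-Fc in both passages the differences from the same controls were 1.11 ± 0.77 for Tspan8 (adjusted p = 0.730; 0.30 to 1.68 when leaving out each tumour in turn, the lowest without prior and current replicate 2, and 0.66 to 2.11 over the other settings), 0.13 ± 0.31 for the brighter Itgb3 probe, 0.33 ± 0.23 for Sox9, 0.07 ± 0.23 for Kit, 0.22 ± 0.51 for Aldh1a3 and 0.38 ± 0.24 for Abcg2. No member was among the 12 probes (0.0421%) that passed. Averaged over tumours with and without current treatment, prior RANK-Fc went with 1.67 ± 0.53 for Tspan8 (adjusted p = 0.205) and 0.52 ± 0.16 for Sox9 (adjusted p = 0.181), neither among the 58 probes (0.204%) called. Whether the prior difference depended on current treatment was tested as an interaction: it was -1.19 ± 0.38 for the brighter Itgb3 probe (unadjusted p = 0.00816 from limma, adjusted p = 0.730) and -2.06 ± 0.95 for Tspan8 (adjusted p = 0.837). Of 28495 probes, 0 passed the interaction test with limma and 1701 had an unadjusted p under 0.05. These comparisons share the 2 passage 2 controls.

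The third comparison was RANK-Fc at the time of collection against none, averaged over passage 1, passage 2 and passage 2 after prior treatment. Abcg2 was 0.50 ± 0.13 higher under RANK-Fc (95% interval 0.22 to 0.78, 1.41-fold), rank 78 of 28495 by its unadjusted limma p of 0.0019, with an adjusted p of 0.651. In this comparison limma called 0 of 28495 probes (0%), and 1954 had an unadjusted p under 0.05 where 1425 would be expected with no effect. By background, Abcg2 differed by 0.32 ± 0.23 in passage 1 and 0.80 ± 0.23 in passage 2 without prior treatment, both with an adjusted p of 1. The passage 2 value was 0.55 without the current tumour that read 12.42. In that passage 2 comparison the median was 0.77 for fibroblast markers (10 of 10 positive), 0.72 for skeletal muscle (4 of 5), 0.45 for macrophages (9 of 9), 0.44 for basal markers (9 of 10) and 0.11 for endothelium (9 of 10). It was 0.23 for adipocyte markers (8 of 9 positive) and 0.11 for T and NK cell markers (8 of 8). The current tumour that read 12.42 for Abcg2 also had the highest fibroblast (12.48), skeletal muscle (8.38) and basal (10.29) mean levels of the 5 tumours compared; the controls reached 10.64, 6.57 and 9.64. Their part in the Abcg2 difference was not tested.

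The other members had averaged differences of -0.27 ± 0.13 for Kit, -0.36 ± 0.17 for the brighter Itgb3 probe, -0.52 ± 0.42 for Tspan8, -0.20 ± 0.12 for Sox9 and 0.14 ± 0.27 for Aldh1a3, with adjusted p between 0.728 and 0.966. In passage 1 alone, RANK-Fc against control gave -0.35 ± 0.22 for Kit, -0.48 ± 0.30 for the brighter Itgb3 probe, -0.45 ± 0.74 for Tspan8 and -0.22 ± 0.22 for Sox9. In passage 2 alone the current against control values were -0.14 ± 0.22, 0.30 ± 0.30, 0.47 ± 0.74 and -0.23 ± 0.22 for the same genes. In both of these single-passage comparisons limma called 0 of 28495 probes, with 519 and 1144 at an unadjusted p under 0.05.

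Within passage 2, levels of the 4 genes that fell with passage were compared from tumour to tumour, among 15 pairs of members. Over the 11 tumours of passage 2, on dye-corrected log2 intensity, Tspan8 and Itgb3 had a Pearson r of 0.894 (permutation p = 0.00032, adjusted over 15 pairs 0.0048) and a Spearman rho of 0.936 (permutation p = 9e-05, adjusted 0.00135). Without the 2 tumours farthest from the median of Itgb3, r was 0.781. Kit and Tspan8 had an r of 0.797 (permutation p = 0.00384, adjusted 0.0288; rho 0.745, p = 0.011, adjusted 0.045), and 0.653 without the 2 tumours farthest in Kit. Kit and Itgb3 had an r of 0.714 (permutation p = 0.0107, adjusted 0.0335; rho 0.809, p = 0.00384, adjusted 0.0288) and 0.739 without 2. Sox9 had an r of 0.744 with Kit (permutation p = 0.0112, adjusted 0.0335; rho 0.745, p = 0.012, adjusted 0.045) and of 0.758 with Tspan8 (permutation p = 0.00871, adjusted 0.0335; rho 0.655, p = 0.0333, adjusted 0.0833), which were 0.508 and 0.517 without 2 tumours. Itgb3 and Sox9 had an r of 0.537 (permutation p = 0.0856, adjusted 0.16; rho 0.582, p = 0.0637, adjusted 0.137). None of the 5 pairs with Abcg2 (r between -0.594 and 0.242) and none of the 5 with Aldh1a3 (0.231 to 0.574) had an adjusted permutation p under 0.05 in the pooled tumours. The 11 tumours belong to 4 treatment groups. With levels centred on their group means, a setting added after the data were seen, r was 0.783 for Tspan8 and Itgb3 (exact permutation within groups, p = 0.0208, adjusted over 15 pairs 0.104), 0.721 for Kit and Tspan8 (adjusted 0.265), 0.641 for Kit and Itgb3 (0.0694), 0.616 for Kit and Sox9 (0.316) and 0.629 for Tspan8 and Sox9 (0.267). None of these pairs thus passed within groups, while Kit and Aldh1a3 did (r = 0.612, exact p = 0.00231, the smallest that 432 orderings can give, adjusted 0.0347). This pair did not pass over the pooled tumours, where its r was 0.451, and 0.105 without the 2 tumours farthest in Kit. Within groups Aldh1a3 had a larger r with Itgb3 (0.814) and Tspan8 (0.661), neither past the exact test (adjusted 0.132 for each).

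**Figure D4:**
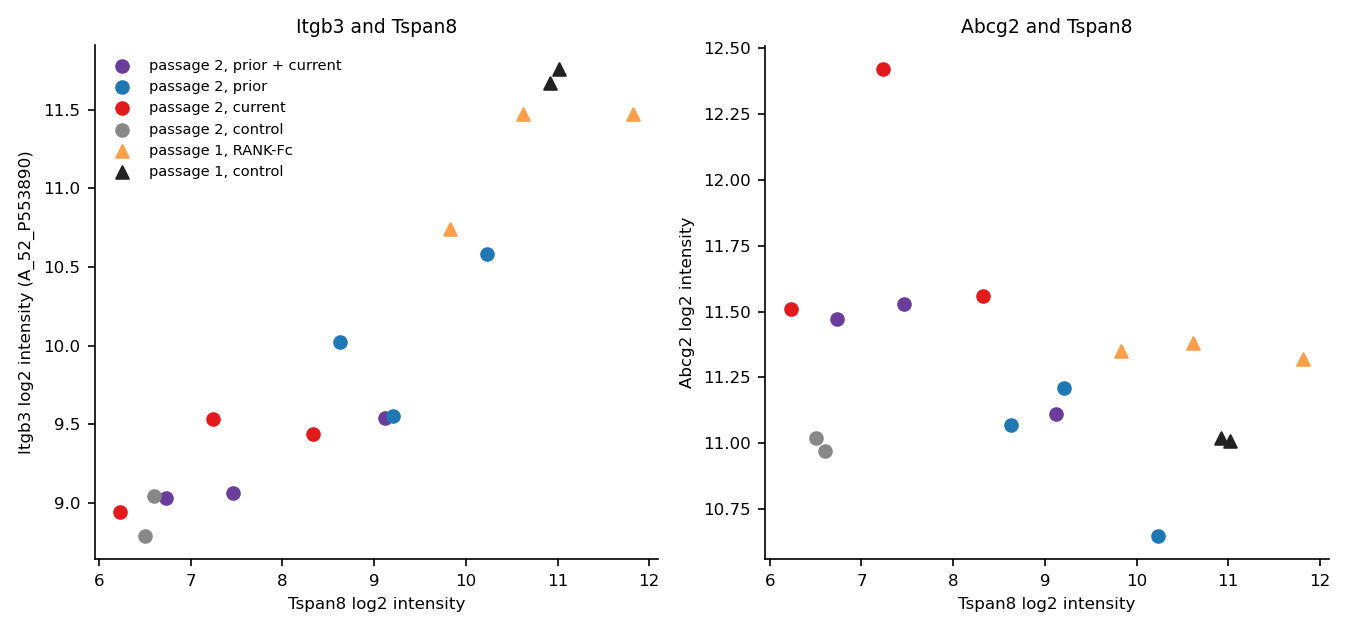
Log2 intensity of Tspan8 (horizontal axes) against the brighter Itgb3 probe (left) and Abcg2 (right) in each of the 16 tumours, with circles for passage 2, triangles for passage 1 and a colour per group. Within passage 2, Itgb3 is higher where Tspan8 is higher (on dye-corrected levels, r = 0.894, and 0.783 with levels centred on group means). Passage 1 lies at the upper end, while the highest Abcg2 level, 12.42, belongs to a current tumour with Tspan8 at 7.24.

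Over all 16 tumours, the genes whose dye-corrected pattern was most like a member's were the following, given as Pearson r over tumours that also differ by passage. Tspan8 was followed by Rasgef1c (0.960), Ppp1r3c (0.957) and Mia (0.957). Itgb3 was followed by Kcna6 (0.970), the Notch ligand gene Dll1 (0.969) and the fucosyltransferase gene Fut9 (0.968). Kit was followed by Map2 (0.943), Ppp1r3c (0.929) and Cyp26a1 (0.922), which encodes an enzyme that degrades retinoic acid. Sox9 was followed by Tnrc6c (0.955), Ppp1r3c (0.921) and Cep95 (0.914). Ppp1r3c, a subunit that directs protein phosphatase 1 to glycogen, thus stood among the 3 nearest genes of Tspan8, Kit and Sox9, and its r over the 11 passage 2 tumours was 0.946, 0.834 and 0.869 with these genes. Aldh1a3 had as nearest genes Zc3h11a (0.896), Cdc16 (0.854) and Slc39a14 (0.839), and Abcg2 had Lactb2 (0.879), Rab7b (0.874) and Suco (0.869).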

How the data were processed

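RNA of 16 tumours was measured on 8 two-colour arrays (1 slide, 1 scan). Agilent Feature Extraction 10.7.3.1 produced the spot values, per the file headers. The deposited median spot and background intensity values are linear and not normalised between arrays, per the file headers. The deposited log10 ratio of red over green was used only to check the channel direction (r between 0.848 and 0.933 with the log ratio computed here). Other deposited columns are 0 or 1 marks (uneven spots, saturation, signal clear of background), per the file headers. A deposited table with 8 columns whose names match no label was not used.

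Intensities were corrected with limma 3.58.1 (R 4.3.3; normexp, offset 50), normalised by loess within arrays and Aquantile between them, and taken as log2 intensity; uneven spots (239 to 337 per array) were left out and spots of a probe averaged. Between 47.5% and 56.5% of spots per array were well above background and none were saturated. A probe was tested if 1 or more groups had it well above background throughout (28495 probes). The model held 6 group means and a dye term, with array as block at an intraspot correlation of 0.245 (0.442 before correction by simulation for its upward bias in this design), empirical Bayes moderation and Benjamini-Hochberg adjustment over all 28495 probes (threshold 0.05; 9 residual degrees of freedom). The number of arrays limits the precision. The fit was tested on simulated data. Lists use each gene's brightest passing probe. The genes named are all member probes, the 3 genes most like each member by Pearson r, and list genes past the threshold, or up to 2 with the smallest p. Correlations used 100000 permutations (Python 3.11.15). The members and lists were chosen with earlier results of these data known. Alternatives covered background correction, normalisation, filters, dye, block, variance and leaving out each tumour. Probe coordinates are not given because the array's design and the RefSeq table use different builds.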

Additional observations from a re-analysis of the deposited data

How the results depend on the processing

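The passage falls of Tspan8, the brighter Itgb3 probe, Kit and Sox9 kept their direction and stayed past the threshold in every alternative and leave-one-out fit that tested them, except with log ratios alone, which leaves 2 residual degrees of freedom (adjusted p 0.169 to 0.312). The second Itgb3 probe kept its direction too, but it entered the test through passage 1 alone, so its calls are not counted as support. Over 729 member values in other settings, 690 kept direction and side, 19 lost the threshold and 20 changed sign; of 1008 leave-one-out values these were 947, 30 and 31. No call was gained. Sign changes all concerned differences that had not passed. With log ratios alone they were -0.055 (Abcg2, prior), 0.459 (Aldh1a3, passage 1), -0.045 (Aldh1a3, averaged current), -0.561 (Aldh1a3, averaged prior), -0.017 (Aldh1a3, prior), -0.858 (Aldh1a3, prior and current), -0.504 and -0.095 (both Itgb3 probes, prior and current), -0.002 (second Itgb3 probe, averaged prior) and -0.080 (Kit, prior and current). With the uncorrected intraspot correlation they were -0.009 (Abcg2, prior), 0.087, -0.127 and -0.033 (Aldh1a3, passage 1, averaged prior, prior and current) and -0.021 (Itgb3, prior and current). With the array block by duplicateCorrelation Aldh1a3 gave 0.011 (passage 1) and -0.026 (averaged prior). Abcg2 gave 0.032 under median centring (averaged prior), and -0.016 under quantile normalisation and -0.021 without the dye term (prior). The cause was not tested.

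Leaving out each tumour in turn changed signs within these ranges: Abcg2 -0.080 to 0.126 (prior); Aldh1a3 -0.188 to 0.109 (passage 1), -0.006 to 0.392 (averaged current), -0.230 to 0.231 (averaged prior), -0.081 to 0.807 (prior) and -0.059 to 0.545 (prior and current). For Itgb3 they were -0.057 to 0.329 (prior and current) and, second probe, -0.191 to 0.055 (passage 1) and -0.016 to 0.098 (prior and current). For Kit they were -0.238 to 0.044 (current, passage 2), -0.482 to 0.016 (interaction) and -0.205 to 0.265 (prior and current). For Sox9 they were -0.446 to 0.029 (passage 1) and -0.102 to 0.226 (interaction), and for Tspan8 -0.935 to 0.098 (passage 1) and -0.033 to 1.045 (current, passage 2).

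Counts over all probes moved more. The passage count of 2613 became 1708 with 1 probe per gene (fewer probes tested) and 0 with log ratios alone, and ran from 1089 to 3122 over the leave-one-out fits, the lowest without passage 2 control replicate 2; it was 1356 without passage 1 control replicate 1, 1643 without passage 2 control replicate 1 and 1661 without passage 1 RANK-Fc replicate 2. The 6-group count of 950 became 402 under median centring and 0 with log ratios alone (leave-one-out 303 to 966). The averaged prior count of 58 became 30 under median centring, 11 without the dye term, 154 with the uncorrected correlation and 0 with log ratios alone (14 to 264). The prior and current count of 12 became 0 without the dye term and with log ratios alone, and 19 with the uncorrected correlation (0 to 20). The prior count of 1 became 3 with Feature Extraction's processed signals, 2 under median centring and with 1 probe per gene, and 0 without background subtraction, without the filter, with the filter in all channels, without the dye term and with log ratios alone (0 to 4). Counts of 0 ran from 0 to 2 for RANK-Fc in passage 1, averaged current RANK-Fc and the interaction, and from 0 to 5 for current RANK-Fc in passage 2. Tspan8 and the second Itgb3 probe were too dim for the filter in all channels. No paired analysis was possible because the labels give tumour codes that tie no tumour to one of another group; the pairing of tumours on an array is in the array block and in the fit of log ratios alone.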
